A study of Mus musculus with 12 samples.

Results

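The genes described here make, control or accompany the epithelial sodium channel, ENaC, the sodium entry pathway of the aldosterone-sensitive end of the nephron. The members were 10 genes taken by name: the channel subunits Scnn1a, Scnn1b and Scnn1g, the aldosterone receptor Nr3c2, the steroid enzyme Hsd11b2, the ubiquitin ligase Nedd4l, the protease Prss8, the sodium pump subunit Fxyd4, and the transcription factors Gata3 and Elf5. All probes that carried one of these symbols were used, 16 of the 45281 probes on the array. Of these, 12 probes of 9 genes passed the detection filter, which asked for 4 or more arrays with a detection p below 0.01, against 16179 probes of the whole array.

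Kidney RNA came from male C57BL/6 mice aged 10 weeks, 6 given 0.1% saline 2 times a day and 6 given colistin at 16 mg/kg per day in 2 doses, for 72 hours. Colistin is a polymyxin antibiotic that is toxic to the kidney at high exposure. Each kidney was read on 1 array of an Illumina MouseWG-6 v2 BeadChip, and each of 2 BeadChips held 3 mice of each group. Saline and colistin arrays alternated along a BeadChip, and the effect of position cannot be told apart from that of treatment. The RNA was that of whole kidney, in which fewer cells of a type and less RNA per cell cannot be told apart.

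In principal cells of the connecting tubule and collecting duct, sodium enters through ENaC on the urine side and leaves through the sodium pump on the blood side. Aldosterone binds the mineralocorticoid receptor in these cells and raises channel number, partly by inducing the alpha subunit and the kinase Sgk1, which keeps the ligase Nedd4-2 from removing the channel. The enzyme made by Hsd11b2 inactivates glucocorticoids there, so that the receptor answers to aldosterone. Proteases, prostasin among them, raise the channel's activity.

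The signal of each array was background-corrected, quantile-normalized and put on the log2 scale, and every level below is such a log2 signal of 1 probe. Arrays detected between 14661 and 16154 probes. Arrays of 3 saline mice lay at the ends of the spread. The first principal component of all kept probes was 64.3 in saline mouse 2 and no higher than 28.6 in the other mice, and saline mouse 5, which held that 28.6, had the dimmest array, with a 95th percentile of raw signal of 475 against at least 752 elsewhere. The lowest value of the component, -27.0, belonged to saline mouse 1, and the next lowest was -14.6. Changes of the members are also given without mice 2 and 5, a pair chosen with earlier results of these data known. Where these 2 mice held the lowest saline values, leaving them out had to lower the change, so such a fall is not a test. Leaving out saline mouse 1 alone had the opposite effect on several members: the log2 change of Scnn1a was then 0.96 ± 0.40 (SE; limma adjusted p = 0.214) and that of Nedd4l 0.55 ± 0.17 (SE; limma adjusted p = 0.117), and 329 of all probes were called. Markers of kidney were present: all 10 listed proximal tubule genes passed the detection filter, while of 9 adrenal cortex genes only Akr1b7 did. Cyp11b2, the gene of aldosterone synthase, was detected on 3 of 12 arrays at most.

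No member changed between colistin and saline mice at the threshold used. Among 16179 probes, limma called 74, which is 0.457%, at an adjusted p under 0.05 (0.321% higher and 0.136% lower in colistin mice, a balance that turned in some alternatives), and 0 of the 12 member probes were among them (lowest adjusted p = 0.397). At an unadjusted p under 0.05, 2 member probes were higher and 0 lower, against 10.9% of all probes, 5.57% higher and 5.32% lower. The groups overlapped at all 12 member probes, while they did not at 1% of all probes. Colistin means lay above saline means at 11 of the 12 probes, against 53% of all probes. With the brightest probe for each gene, the median log2 change of the 9 genes was 0.21, against 0.01 over all 11344 genes, whose middle 50% lay between -0.12 and 0.12. Without saline mice 2 and 5 several of these changes were smaller and those of Fxyd4 and Elf5 were larger, as given for each gene.

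**Figure D1:**
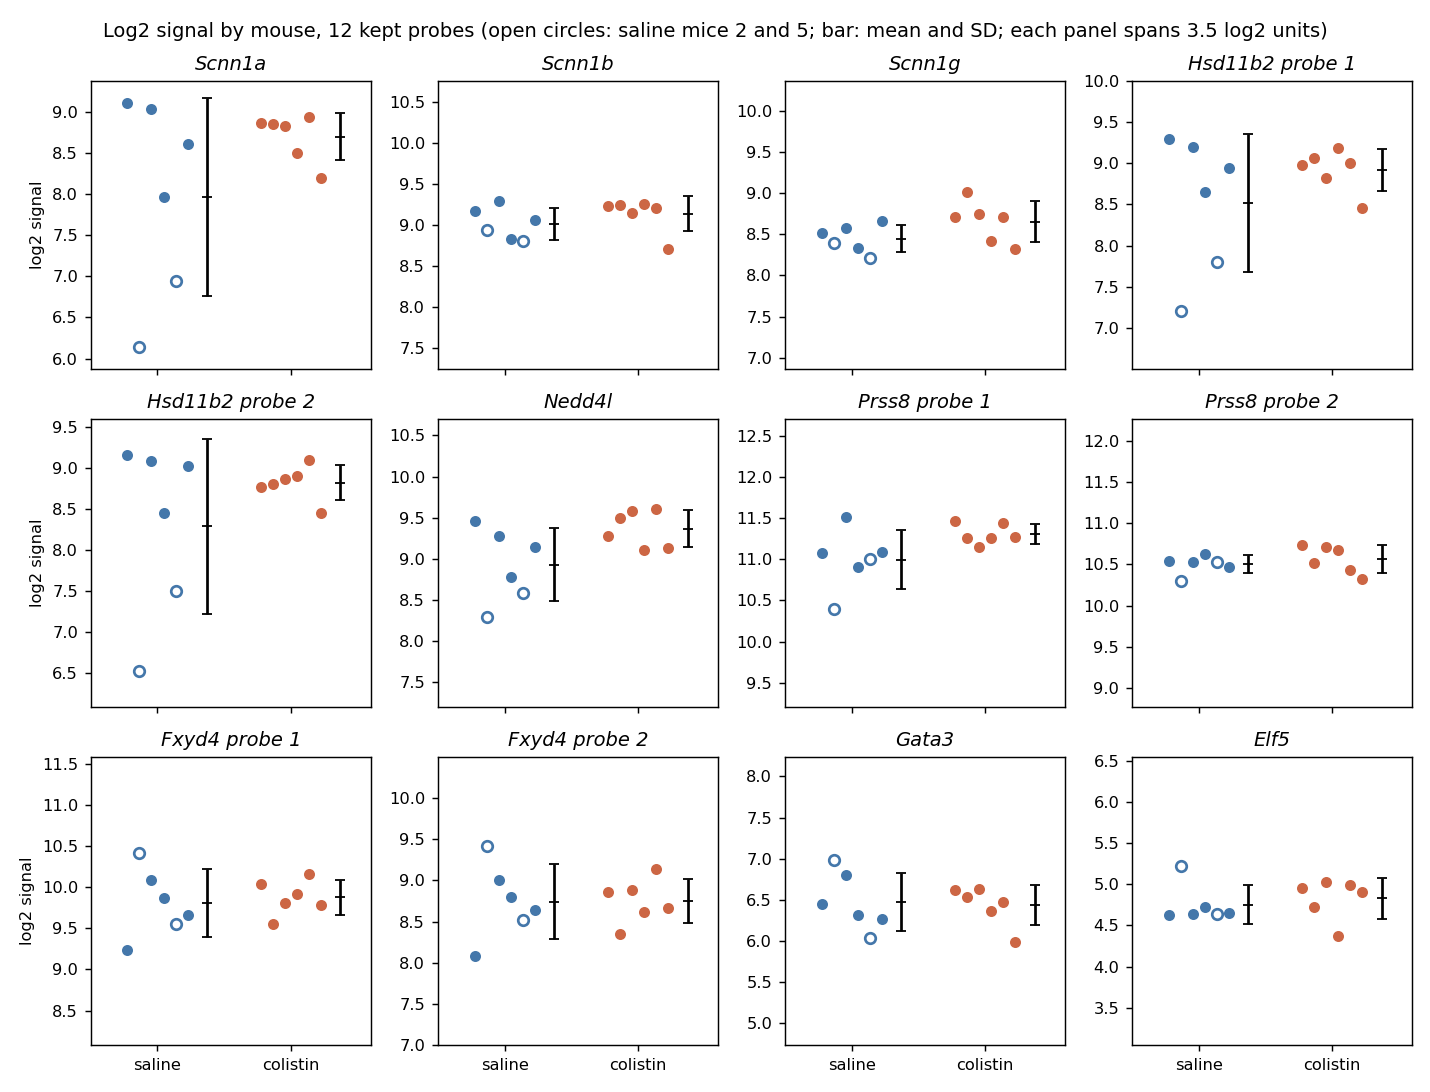
Log2 signal of the 12 kept member probes in each of 6 saline and 6 colistin mice, with the mean and SD of each group beside the points. Saline mice 2 and 5, drawn as open circles, were the lowest saline points for Scnn1a and for both Hsd11b2 probes, while Scnn1b and Scnn1g spread over a narrow range; where a gene has 2 probes, they are numbered in the order in which the text gives their IDs.

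Scnn1a (chromosome 6) encodes the alpha subunit, without which the channel does not reach the cell surface in number. Its probe, ILMN_2729607, was detected on all 12 arrays. In saline mice the log2 signal was 6.14 at its lowest, 8.28 at the median and 9.11 at its highest, and in colistin mice it was 8.20, 8.84 and 8.94. The saline mice covered the whole range of the colistin mice and went far below it: saline mouse 2 was at 6.14 and saline mouse 5 at 6.94, and the other 4 were between 7.96 and 9.11. This range of 2.97 log2 units among saline mice is 7.81-fold. Among colistin mice the range was 1.68-fold. Only 0.0804% of kept probes had a larger SD among saline mice. The mean was 7.97 ± 1.20 (SD, n = 6) in saline and 8.70 ± 0.29 (SD, n = 6) in colistin mice, a log2 change of 0.73 ± 0.42 (SE; limma adjusted p = 0.530) with a 95% interval from -0.16 to 1.63. Without saline mice 2 and 5, its 2 lowest saline values, the log2 change of Scnn1a was 0.02 ± 0.20 (SE; limma adjusted p = 0.996).

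Scnn1b and Scnn1g, both on chromosome 7, encode the beta and gamma subunits that complete the channel. They are neighbours, with no other gene annotated between them in GRCm38.p6. The Scnn1b probe, ILMN_2618383, read 8.81, 8.99 and 9.29 as the lowest, median and highest saline values and 8.71, 9.22 and 9.26 in colistin mice. Of the colistin mice, 5 lay between 9.14 and 9.26 and colistin mouse 6 lay below every saline mouse. The log2 change of Scnn1b was 0.12 ± 0.12 (SE; limma adjusted p = 0.698), and the 95% interval ran from 0.911-fold to 1.29-fold.

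The Scnn1g probe, ILMN_2759914, read 8.21, 8.45 and 8.66 in saline mice and 8.32, 8.71 and 9.02 in colistin mice. There 4 of 6 colistin mice lay above the highest saline mouse, and colistin mice 4 and 6 lay within the saline range. Scnn1g had a log2 change of 0.21 ± 0.12 (SE; limma adjusted p = 0.533), with a 95% interval from 0.964-fold to 1.38-fold. Saline mice 2 and 5 did not stand apart in these 2 subunits as they did in Scnn1a: the range among saline mice was 1.40-fold for Scnn1b and 1.36-fold for Scnn1g, against a median of 1.59-fold over all kept probes.

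The changes of the 3 subunits were compared within mice. The change of Scnn1a exceeded that of Scnn1b by 0.61 ± 0.44 (SE) and that of Scnn1g by 0.52 ± 0.45 (SE), and Scnn1b fell short of Scnn1g, with a difference of -0.09 ± 0.10 (SE). Treatment labels were permuted in all 924 ways, two-sided and exact, and none of the 3 pairs passed (p = 0.255, 0.325 and 0.366, each 0.366 after adjustment over the 3 pairs). For both pairs with Scnn1a, 6 of 6 colistin mice lay above the saline mean, and without saline mice 2 and 5 the differences were -0.03 and -0.12.

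The 250 bases before the transcription start of the beta and gamma genes are shown because these neighbouring genes are the members with the steadiest levels among saline mice besides one Prss8 probe. They come from RefSeq's GRCm38.p6 annotation, on the plus strand, at chr7:121864788-121865037 for Scnn1b and chr7:121734229-121734478 for Scnn1g. Capitals mark the GC box, GGGCGG or CCGCCC on the other strand, the motif read by Sp1-type factors.
Scnn1b: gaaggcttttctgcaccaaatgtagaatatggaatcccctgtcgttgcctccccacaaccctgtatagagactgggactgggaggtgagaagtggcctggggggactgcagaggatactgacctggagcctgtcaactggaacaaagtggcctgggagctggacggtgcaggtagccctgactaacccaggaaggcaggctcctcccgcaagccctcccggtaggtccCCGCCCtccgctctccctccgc
Scnn1g: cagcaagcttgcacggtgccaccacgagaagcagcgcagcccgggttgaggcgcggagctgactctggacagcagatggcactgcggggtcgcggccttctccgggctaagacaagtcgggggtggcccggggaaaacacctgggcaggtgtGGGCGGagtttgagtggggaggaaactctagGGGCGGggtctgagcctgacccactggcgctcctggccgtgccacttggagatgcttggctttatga

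The Scnn1b window holds 1 GC box and the Scnn1g window 2, and 32.7% of 32851 RefSeq promoter windows cut to the same length hold at least 1. Searched on both strands, neither window holds AGAACA, or TGTTCT on the other strand, the core recognised by mineralocorticoid and glucocorticoid receptors, which 16.1% of windows hold. Neither holds the GATA motif AGATAA, or TTATCT on the other strand, which 9.99% of windows hold. These matches describe letters in a short window. Of the members, 6 had an entry in the promoter table: Scnn1b, Scnn1g, Nr3c2, Fxyd4, Gata3 and Elf5.

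Nr3c2 (chromosome 8), which encodes the mineralocorticoid receptor, was not measured above background. Its 2 probes were detected on 0 of 12 arrays. Their raw signals lay between 83.7 and 96.6 at one probe and between 84.3 and 93.1 at the other, in all 12 mice, so no change can be given for the receptor. The gene of the related glucocorticoid receptor, Nr3c1, was detected on 3 of 12 arrays and did not pass the filter either.

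Hsd11b2 (chromosome 8) encodes the enzyme that turns corticosterone into an inactive form in aldosterone target cells. Probe ILMN_1229516 read 7.21, 8.80 and 9.30 as the lowest, median and highest saline values and 8.46, 8.99 and 9.18 in colistin mice. Probe ILMN_2731265 read 6.53, 8.73 and 9.16 in saline and 8.45, 8.84 and 9.10 in colistin mice. Both probes placed the same saline mice lowest: mouse 2 was 3.53-fold and 5.28-fold below the mean of saline mice 1, 3, 4 and 6 at these probes, and mouse 5 was 2.35-fold and 2.68-fold below it. The log2 changes of Hsd11b2 were 0.40 ± 0.30 (SE; limma adjusted p = 0.609) and 0.53 ± 0.37 (SE; limma adjusted p = 0.590). Without saline mice 2 and 5 both lay below 0, at -0.11 ± 0.15 (SE) and -0.11 ± 0.15 (SE), with limma adjusted p = 0.983 and 0.981.

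Nedd4l (chromosome 18) encodes Nedd4-2, the ligase that marks the channel for removal from the membrane. Its probe, ILMN_2878501, read 8.30, 8.96 and 9.46 in saline mice and 9.11, 9.38 and 9.60 in colistin mice. All 6 colistin mice lay above the saline median and 3 lay above every saline mouse, while saline mice 2 and 5 were again the lowest, at 8.30 and 8.59. This was the member with the smallest p: the log2 change of Nedd4l was 0.44 ± 0.18 (SE; unadjusted p = 0.0277 and limma adjusted p = 0.397), a 1.36-fold difference with a 95% interval from 1.04-fold to 1.77-fold. It was 0.20 ± 0.14 (SE; limma adjusted p = 0.914) without saline mice 2 and 5.

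Prss8 (chromosome 7) encodes prostasin, a membrane-anchored serine protease that activates the channel, and its 2 probes had raw signals from 938 to 3279. Probe ILMN_2740965 read 10.40, 11.04 and 11.51 in saline and 11.16, 11.26 and 11.46 in colistin mice. Each colistin mouse exceeded the saline median there, and only saline mouse 3 exceeded them all. The log2 change at this Prss8 probe was 0.31 ± 0.14 (SE; unadjusted p = 0.0491 and limma adjusted p = 0.458), and 0.16 ± 0.12 (SE; limma adjusted p = 0.920) without saline mice 2 and 5. The probe ILMN_2846148 of the same gene read 10.30, 10.53 and 10.63 in saline and 10.32, 10.60 and 10.73 in colistin mice. Its change was 0.06 ± 0.10 (SE; limma adjusted p = 0.792), and 0.02 ± 0.10 (SE; limma adjusted p = 0.995) without saline mice 2 and 5. Over all 12 mice the 2 Prss8 probes differed by 0.25 in their change. Saline mouse 2 was the lowest saline mouse at both, by 1.68-fold and 1.18-fold below the mean of saline mice 1, 3, 4 and 6.

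Fxyd4 (chromosome 6) encodes CHIF, a small subunit that raises the sodium affinity of the pump in collecting duct cells. Its levels ran the other way in saline mouse 2, which was the highest of all 12 mice at both Fxyd4 probes. Probe ILMN_2670751 read 9.24, 9.76 and 10.42 in saline and 9.55, 9.87 and 10.16 in colistin mice, and probe ILMN_1215552 read 8.08, 8.72 and 9.42 against 8.35, 8.76 and 9.14. The saline range enclosed the colistin range at both probes. The log2 changes of Fxyd4 were 0.07 ± 0.17 (SE; limma adjusted p = 0.876) and 0.01 ± 0.19 (SE; limma adjusted p = 0.986).

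Gata3 (chromosome 2) encodes a zinc finger transcription factor of the nephric duct lineage that is kept in the collecting duct. Its probe, ILMN_1248843, read 6.04, 6.39 and 6.98 in saline mice and 5.99, 6.51 and 6.63 in colistin mice, and the groups overlapped between 6.04 and 6.63. Saline mice 2 and 3 lay above every colistin mouse and colistin mouse 6 lay below every saline mouse. The log2 change of Gata3 was -0.04 ± 0.16 (SE; limma adjusted p = 0.927); under median scaling of the arrays it was 0.15, where the median over all kept probes was 0.17. Saline mouse 2 was the highest mouse here as well.

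Elf5 (chromosome 2), which encodes an Ets-family factor of principal cells, lay at the limit of detection. Its probe ILMN_2736380 was detected in 1 saline mouse and 3 colistin mice, and its other 2 probes on 0 of 12 arrays. The kept probe read 4.63, 4.65 and 5.23 in saline and 4.37, 4.93 and 5.02 in colistin mice. The single saline array with a detected signal was again that of mouse 2. Elf5 had a log2 change of 0.08 ± 0.13 (SE; limma adjusted p = 0.828). Without saline mice 2 and 5 the change was 0.17 for Elf5, -0.02 for Gata3, 0.16 and 0.12 for the Fxyd4 probes, 0.05 for Scnn1b and 0.14 for Scnn1g, and none was called.

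**Figure D2:**
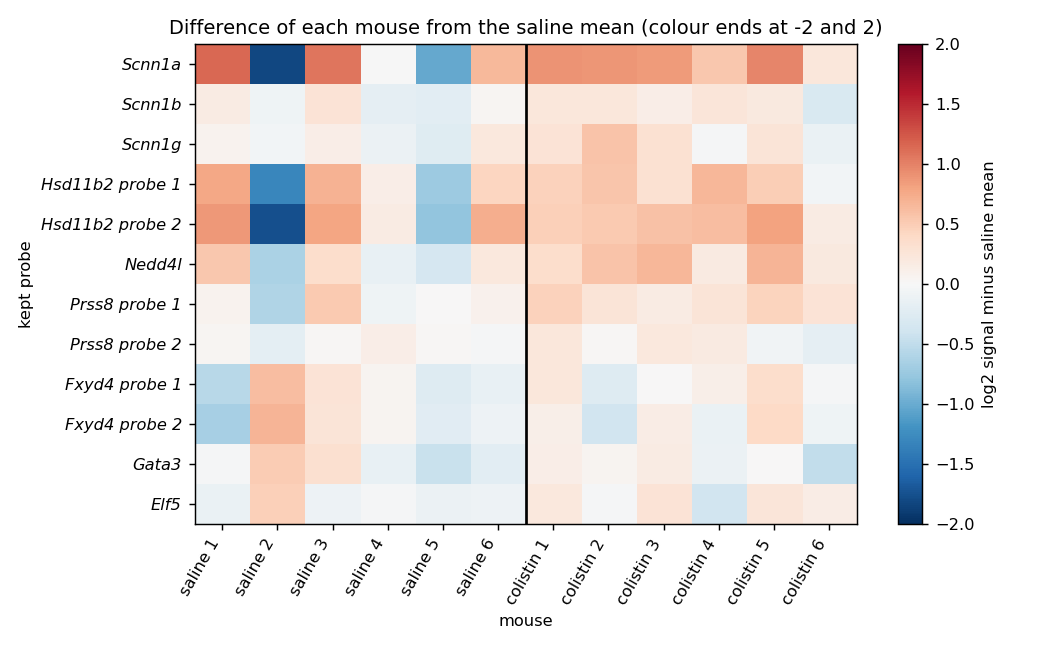
Difference of each mouse from the saline mean, in log2 units, for the 12 kept member probes (rows) in 6 saline and 6 colistin mice (columns). Saline mouse 2 is low for Scnn1a, Hsd11b2, Nedd4l and Prss8 and high for Fxyd4, Gata3 and Elf5, and saline mouse 5 is low for Scnn1a, Hsd11b2, Gata3 and Nedd4l.

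Like many other probes, the members thus varied across mice in patterns that the comparison of groups did not show. Saline mouse 2 had the lowest of all 12 values for 4 of the 9 genes (by the brightest probe) and the highest for 3. After each group's mean was taken out, the deviations of Scnn1a followed those of both Hsd11b2 probes over the 12 mice (Pearson r = 0.968 and 0.977), those of Nedd4l (r = 0.936) and those of Prss8 at ILMN_2740965 (r = 0.789). Over the 10 mice other than saline mice 2 and 5, r was 0.795 and 0.884 for Hsd11b2, 0.891 for Nedd4l and 0.581 for Prss8. Scnn1b and Scnn1g followed each other with r = 0.688, and with r = 0.624 over the 10 mice. For Gata3 the coefficient with Scnn1a was 0.01 over 12 mice and 0.73 over the 10. These coefficients describe arrays that share RNA quality, dissection and normalization, and no test was attached to them.

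Among the genes outside the members whose deviations were most like the mean of the 3 subunits over the 12 mice were Gpi1 (r = 0.984), which encodes a glycolytic enzyme, Mier2 (named 2700087H15Rik on the array; r = 0.983), B4galt3 (r = 0.978) and Mfsd7a (r = 0.972). Their log2 changes lay between 0.03 and 0.27 and none was called. Since Scnn1a had the widest spread of the subunits, it weighed most in that mean (r = 0.966 with it, against 0.776 for Scnn1b and 0.709 for Scnn1g). Of all kept probes, 10.8% had a higher r with that mean than Scnn1b and 15.6% than Scnn1g. The share was 14.5% for Prss8 at ILMN_2740965, 0.804% and 1.49% for the Hsd11b2 probes and 0.785% for Nedd4l. It lay between 33.0% and 67.9% for the other Prss8 probe, Fxyd4, Gata3 and Elf5.

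**Figure D3:**
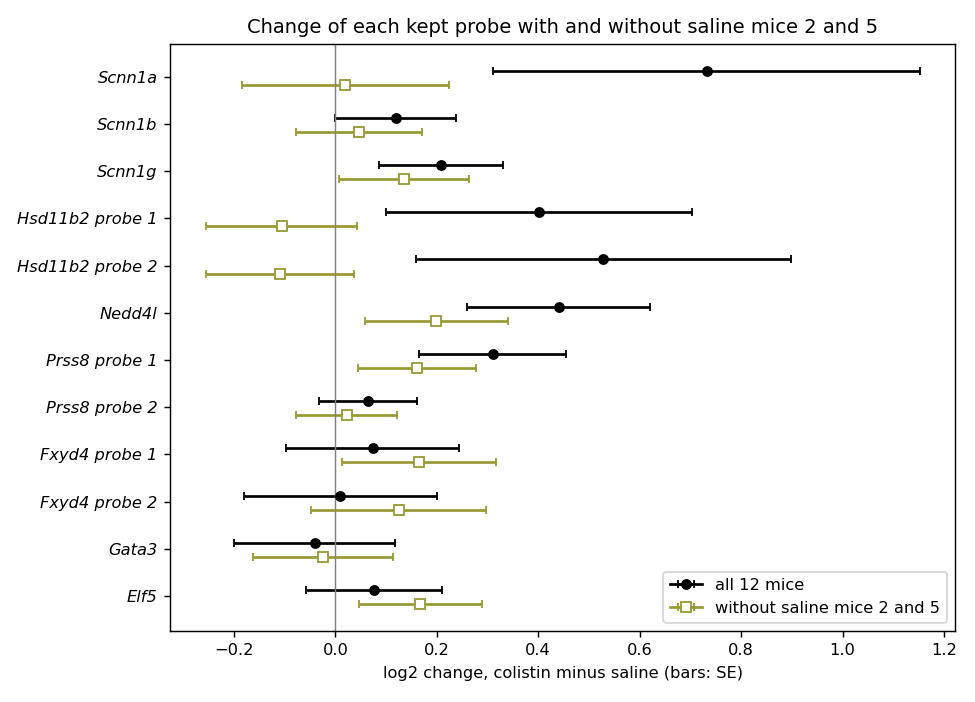
Log2 change, colistin minus saline, of each kept member probe over all 12 mice (filled circles) and without saline mice 2 and 5 (open squares), with SE bars. Leaving both mice out moved Scnn1a from 0.73 to 0.02 and both Hsd11b2 probes from above 0 to -0.11. Scnn1b moved from 0.12 to 0.05 and Gata3 from -0.04 to -0.02. For Scnn1a, Hsd11b2 and Nedd4l these were the lowest saline mice, so leaving them out had to lower the change.

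Markers of other cells also varied among these mice. The summed normalized signal of 10 endothelial genes lay between 1982 and 5744 in saline mice and between 2425 and 3384 in colistin mice, with 5744 in saline mouse 2, 5192 in mouse 5, 5022 in mouse 4, 4754 in mouse 6 and the 1982 in mouse 1. Scnn1a read 7.96 in mouse 4 and 8.61 in mouse 6. All 10 endothelial genes were lower in colistin mice, with a median of -0.48, and 0 were called. Of these, 9 had an unadjusted limma p under 0.05, against 11.6% of all genes in either direction. The summed signal of 8 fibroblast genes was 1450 to 3550 in saline and 912 to 1305 in colistin mice. The 3550 was in saline mouse 2, with 2172 in mouse 4 and 1914 in mouse 5. Of these 8 genes 7 were lower in colistin mice, 6 of them at an unadjusted limma p under 0.05, against 11.6% of all genes in either direction. The median was -0.70. Here 2 of 8 were called, against 0.573% of all genes, and both fell. They were the matrix genes Ltbp4 (log2 -0.71 ± 0.14, SE; limma adjusted p = 0.0445) and Loxl1 (log2 -0.88 ± 0.15, SE; limma adjusted p = 0.0147). Of 10 macrophage genes 0 were called and the median was -0.41. In colistin mice 9 were lower, 4 of them at an unadjusted limma p under 0.05, and 1 was higher. The highest sum of the 10, 1702, was in saline mouse 4. The highest mean over these genes was in saline mouse 2, at 0.39 log2 units above the saline mean, against 0.09 in mouse 4. Proximal tubule genes had their lowest sum, 43744, in saline mouse 2, against 49033 to 58395 in the other saline mice, and 0 of 10 were called. The part of these differences in the members' values was not tested.

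Other principal cell genes also varied among saline mice. The mean over the 9 listed principal cell genes other than the members was -0.03 for saline mouse 2 and -0.32 for mouse 5 relative to the saline mean, in log2 units, and a mean over genes can hide wide spreads of single ones. Aqp4, a water channel named here after its values were seen, ranged from 7.73 to 10.28 among saline mice. Among the 14 principal cell genes that passed the filter, members included, 0 were called, against 0.573% of all genes. Of these, 12 were higher in colistin mice, among them the members Hsd11b2, Scnn1b, Scnn1g, Fxyd4 and Elf5 already counted above. The 12 higher and 2 lower stand beside 53% higher among all kept probes, and the median of the 14 was 0.13. The genes with the smallest p there were Stc1, the gene of the hormone stanniocalcin-1 (0.41 ± 0.19, SE; limma adjusted p = 0.456), and Aqp3, the water channel of the blood side (-0.25 ± 0.12, SE; limma adjusted p = 0.462). Aqp2, the vasopressin-regulated water channel, was at 0.01 ± 0.22 (SE) and is named here after its value was seen.

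The comparison was repeated within each BeadChip. On BeadChip 1 the log2 change was 0.45 ± 0.71 (SE) for Scnn1a, -0.07 ± 0.21 (SE) for Scnn1b and -0.01 ± 0.17 (SE) for Scnn1g, and on BeadChip 2 it was 1.01 ± 0.33 (SE), 0.31 ± 0.11 (SE) and 0.43 ± 0.14 (SE). Nedd4l was at 0.27 ± 0.31 (SE) and 0.61 ± 0.15 (SE). Each BeadChip held 1 of the saline mice that stood apart, mouse 2 on the first and mouse 5 on the second. Of the 12 probes 7 kept their direction on both BeadChips, against 63.4% of all kept probes. No member probe was called on either. Of all 16179 kept probes 0 were called on BeadChip 1, so none of the members could be, and 304 on BeadChip 2.

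Gata3 had opposite signs on the BeadChips, at -0.47 ± 0.21 (SE) on BeadChip 1 and 0.39 ± 0.11 (SE) on BeadChip 2. It was the only member with an unadjusted p under 0.05 for the interaction of treatment and BeadChip (0.86 ± 0.24, SE; unadjusted p = 0.00320), and after adjustment over all kept probes neither it nor any other of the 16179 probes was called. Markers of the urothelium, the lining of the renal pelvis where Gata3 is also expressed, were distributed in a partly like way. The summed signal of the 4 urothelial genes that passed the filter was 189 to 232 in saline and 89.7 to 158 in colistin mice on BeadChip 1. On BeadChip 2 it was 80.9 to 108 in saline mice, and 193, 87.9 and 187 in colistin mice 1, 2 and 3. Krt5, Upk1a and Upk3a of that list did not pass the filter, 0 of the 4 were called, and the part of these transcripts in the Gata3 values was not tested.

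**Figure D4:**
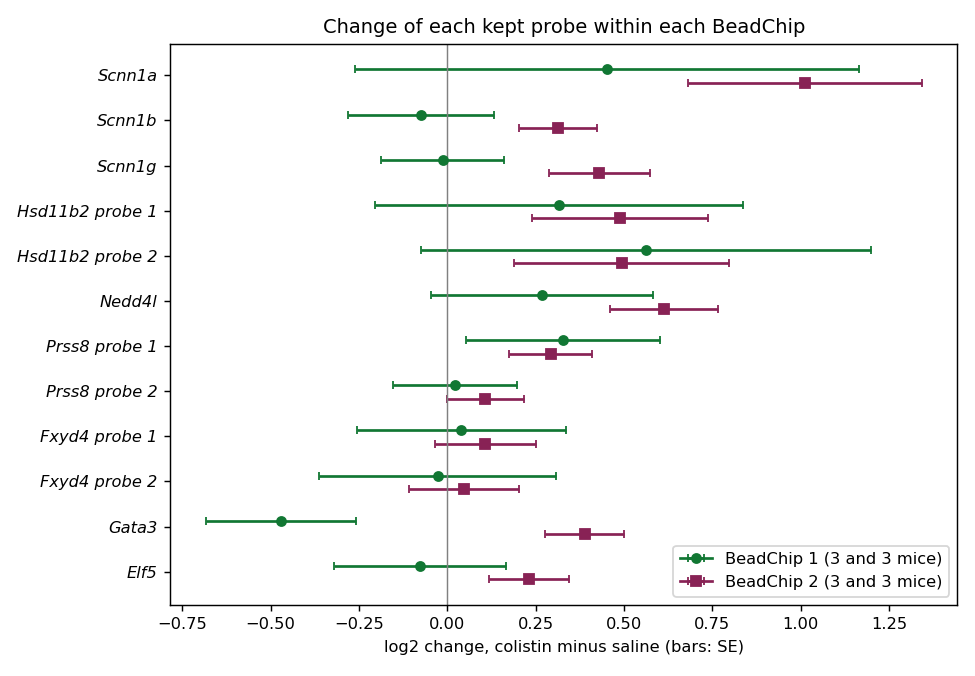
Log2 change, colistin minus saline, of each kept member probe on BeadChip 1 (circles, 3 and 3 mice) and BeadChip 2 (squares, 3 and 3 mice), with SE bars. Gata3 lies at -0.47 on the first and 0.39 on the second, and the bars of the other members are wider on BeadChip 1 at every probe.

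Of the wider pathway, 43 regulators, targets and partners of the channel and of steroid signalling were listed and 38 passed the filter. Of these 1 rose, 0 fell and 37 did not pass, against 0.573% called among all genes by their brightest probe. The median log2 change of the 38 was 0.10, with 22 higher and 16 lower in colistin mice. At an unadjusted p under 0.05, 3 were higher and 1 lower, against 11.6% of all genes. The list was put together with earlier results of these data known.

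The gene that rose was Zbtb16, which encodes the zinc finger repressor PLZF and is induced by glucocorticoids and mineralocorticoids. Its probe was detected on 11 of 12 arrays, and its saline level lay near background and near the 4.75 of Elf5. Zbtb16 read 4.91 ± 0.15 (SD, n = 6) in saline and 5.72 ± 0.38 (SD, n = 6) in colistin mice. In 6 of 6 colistin mice it was above the saline mean. The log2 change was 0.81 ± 0.15 (SE; limma adjusted p = 0.0241). Over its alternatives the change ranged from 0.29 to 1.38 and the limma adjusted p from 0.000720 to 0.556. This call was lost in 13 of 25 alternatives, among them those without saline mouse 4 or 6 and those without colistin mouse 2, 3, 4, 5 or 6, at adjusted p from 0.0708 to 0.0865 in limma. Fkbp5, the steroid-induced co-chaperone of both corticosteroid receptors, was at 0.98 ± 0.24 (SE; limma adjusted p = 0.120) and above the saline mean in 6 of 6 colistin mice. It was called without saline mouse 1 (1.20 ± 0.18, SE; limma adjusted p = 0.00365), on BeadChip 2 alone and with array weights. St14, which encodes matriptase, a protease that acts together with prostasin, was at 0.53 ± 0.15 (SE; limma adjusted p = 0.186) and was called with array weights (limma adjusted p = 0.0406). Agtr1a, which encodes an angiotensin receptor, was at -0.47 ± 0.11 (SE; limma adjusted p = 0.0820) and below the saline mean in 6 of 6 colistin mice. It was called without saline mouse 2 (limma adjusted p = 0.0273), without saline mice 2 and 5 (-0.56 ± 0.10, SE; limma adjusted p = 0.0224) and with array weights (limma adjusted p = 0.00743), and its adjusted p ranged up to 0.99968 over its alternatives.

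The best known aldosterone-induced genes did not pass. Sgk1, whose kinase restrains Nedd4-2, read 11.44 ± 0.49 (SD, n = 6) in saline and 11.74 ± 0.36 (SD, n = 6) in colistin mice, a log2 change of 0.29 ± 0.21 (SE; limma adjusted p = 0.603) with a 95% interval from -0.16 to 0.75. Tsc22d3, the gene of the steroid-induced protein GILZ that holds channels at the surface, was at 0.39 ± 0.18 (SE; limma adjusted p = 0.463), with a 95% interval from -0.01 to 0.78. These transcripts are also induced through the glucocorticoid receptor and are made in many kidney cells.

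**Figure D5:**
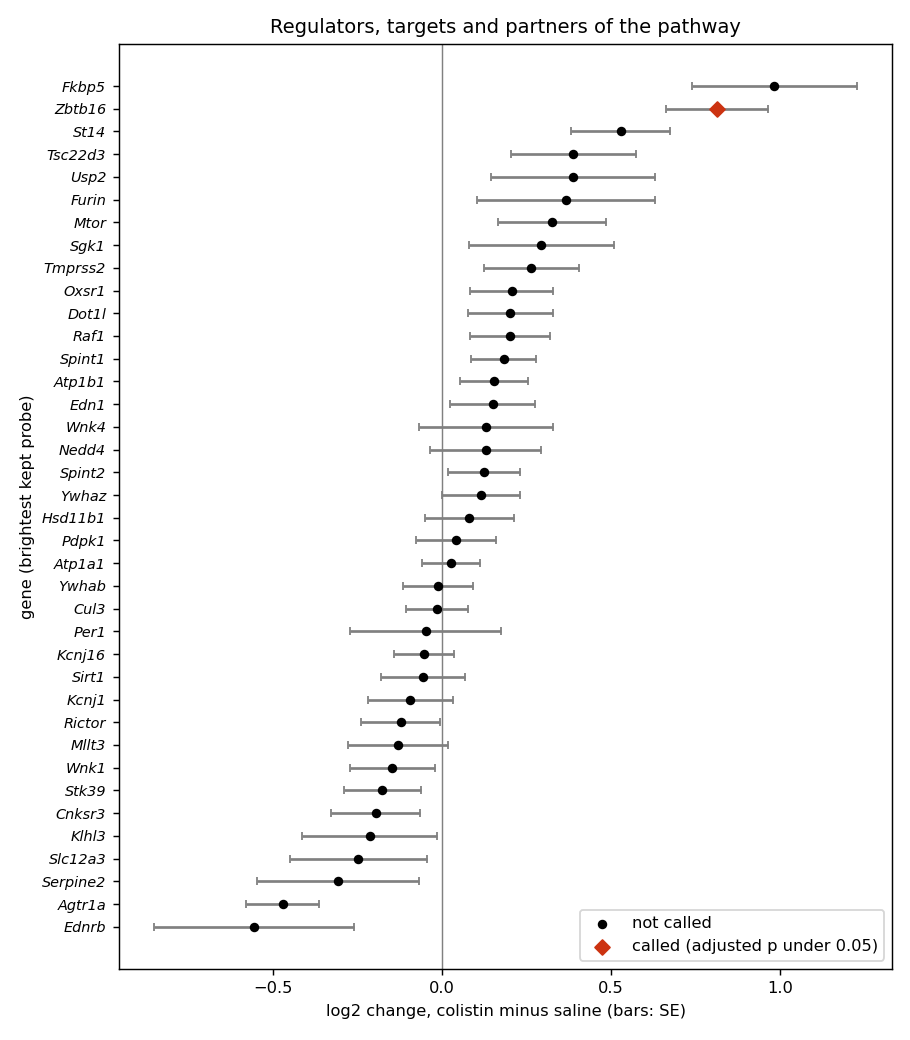
Log2 change, colistin minus saline, with SE bars, of the 38 pathway genes that passed the filter, each by its brightest probe and ordered by size. Zbtb16, the diamond at 0.81, is the called gene, and Fkbp5 at 0.98 has the largest change with a wider bar.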

How the data were processed

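The authors deposited mean bead signals per probe as intensities on a linear scale, not background-subtracted (lowest value 74.7), each with a detection p-value against negative control beads, per the file headers. They also deposited normalized intensities per probe, used as an alternative, and tables per gene symbol, not used here. The submitters' processing notes list GenomeStudio and Partek, without versions.

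Intensities were corrected and normalized with neqc's steps in limma 3.58.1 (R 4.3.3; background from detection p-values, offset 16, quantile), which compresses the changes of dim probes. For each probe lmFit and eBayes compared the groups, two-sided and Benjamini-Hochberg adjusted over all 16179 kept probes. The fit was tested on simulated data. Current symbols came from GRCm38.p6 gene names (27760 probes by symbol, 8035 by synonym, 9486 kept under the array's own name). Members and lists were chosen with earlier results of these data known. The rule for named genes took all members, up to 4 called pathway genes or otherwise the 4 with the smallest p, always Sgk1 and Tsc22d3, up to 2 genes of each cell type list by smallest p, and the 5 likest genes, of which 1 is not reported here; with 1 pathway gene called, all 4 are given. Where the mice came from separate litters is not stated, and p-values measure the spread between these 12 mice, whose number limits precision.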

Additional observations from a re-analysis of the deposited data

Results flagged for a closer look

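Of 24 groups of 6 values (12 probes in each treatment), 2 held a mouse that stood far from the others by Dixon's test, which chance does in about 1 of 20 groups. Colistin mouse 6 had the lowest Scnn1b signal, at 8.71 against 9.14 to 9.26 in the other colistin mice, a gap of 0.797 of the whole range. Saline mouse 2 had the highest Elf5 signal, at 5.23 against 4.63 to 4.72 in the other saline mice, a gap of 0.835 of the whole range, and was the only saline mouse with Elf5 above background. Saline mice 2 and 5 were both low for Scnn1a, and this test, which looks for a single distant value, did not mark them.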

How the results depend on the processing

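No member probe was called under any of the 27 alternatives (lowest adjusted p = 0.0852, for Nedd4l), and 292 of 311 single-probe values kept their direction. Part of this agreement was fixed in advance. Changing the detection filter, adding an intensity trend, or adding BeadChip or replicate number as a balanced term cannot alter the change of a probe. The number of all probes called was 25 without background correction, 45 with an offset of 50, 33 with no detection filter, 27 for probes detected on all 12 arrays, 0 on BeadChip 1, 304 on BeadChip 2, 470 with array weights, 139 at an adjusted p under 0.10, and from 37 (without saline mouse 4) to 329 (without saline mouse 1) with 1 mouse left out. The main 52 higher and 22 lower became 106 and 223 without saline mouse 1, 198 and 272 with array weights, 106 and 198 on BeadChip 2, and 60 and 4 under median scaling. The number of pathway genes called was 0 without background correction, with the offset of 50, without the filter, with detection on all arrays and on BeadChip 1, 4 with array weights, 2 without saline mice 2 and 5 and at the threshold of 0.10, and from 0 to 2 with 1 mouse left out. The median of the members lay between 0.04 and 0.41 in the other settings and between 0.14 and 0.28 with 1 mouse left out.

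Directions turned as follows; the cause was not tested. On BeadChip 1 alone Scnn1b was at -0.075, Scnn1g at -0.013, Fxyd4 at -0.028 (ILMN_1215552) and Elf5 at -0.078. Without saline mice 2 and 5, Hsd11b2 was at -0.11 at both probes, Scnn1a minus Scnn1b at -0.027 and Scnn1a minus Scnn1g at -0.12. Gata3 was at 0.15 under median scaling, 0.39 on BeadChip 2, 0.14 with array weights and between -0.13 and 0.060 with 1 mouse left out. With 1 mouse left out Fxyd4 lay between -0.038 and 0.20 (ILMN_2670751) and between -0.12 and 0.15 (ILMN_1215552). Scnn1a minus Scnn1b lay between 0.26 and 0.81, Scnn1a minus Scnn1g between 0.17 and 0.74, and Scnn1b minus Scnn1g between -0.16 and -0.039. The interaction called 0 member probes throughout. No pairing by replicate number was seen: the correlation of deviations of same-numbered mice lay between -0.26 and 0.12, and 0 of 6 correlated best with their own number. Same-numbered mice of the groups always lay on different BeadChips, so this check cannot show whether the mice were paired. With the replicate number as a block, 36 probes, 0 member probes and 0 pathway genes were called. Signals near background limit Elf5, Nr3c2, Zbtb16 and the urothelial genes.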

Other observations

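Transcription factors of the collecting duct were measured beside Gata3 and Elf5. Of 14 listed factors 12 passed the filter, 0 were called, 7 were higher and 5 lower in colistin mice, and the median log2 change was 0.08. The factors with the smallest p were Elf3, an epithelial Ets factor (0.40 ± 0.16, SE; limma adjusted p = 0.384), and Lhx1, a factor of nephric duct and nephron development (-0.26 ± 0.11, SE; limma adjusted p = 0.432). Tfcp2l1, which governs the balance of principal and intercalated cells, was at 0.44 ± 0.21 (SE; limma adjusted p = 0.478) and is named after its value was seen.

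Segments next to the principal cells held 1 called gene, against 0.573% of all genes. Of 9 distal convoluted and connecting tubule genes Pvalb, the gene of the calcium-binding protein parvalbumin, fell (log2 -1.13 ± 0.19, SE; limma adjusted p = 0.0135), 8 did not pass and the median was -0.11. Of 9 intercalated cell genes 0 were called, with a median of -0.04, and the anion exchanger gene Slc4a1 was at -0.53 ± 0.20 (SE). Of 6 thick ascending limb genes 0 were called, with a median of 0.06 and Umod, the gene of uromodulin, at 0.28 ± 0.13 (SE). The adrenal gene Akr1b7 was at -0.03 ± 0.18 (SE), and urothelial genes had a median of -0.12 over 4 genes. Proximal tubule genes had a median of 0.06 over 10.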
